A study of Mus musculus with 7 samples.

Results

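The plasminogen activator system was followed through 5 of its genes: Plaur, which encodes the urokinase receptor, Plau (urokinase), Plat (tissue-type plasminogen activator), Plg (plasminogen) and Serpine2 (protease nexin-1, an inhibitor of both activators). The set was chosen because the Plaur signal differed with Nanog genotype in opposite directions in induced pluripotent stem cells (iPSC) and in mouse embryonic fibroblasts (MEF), so these Plaur differences are given as a description, with no test. Of the 5 genes, 4 were found among the 22180 genes of the array that could be named, and 3 of them (Plaur, Plau and Plat) lay above background on at least 1 array. Serpine2 was not analysed here. The measured members are probe sets 17474974 (Plaur), 17297537 (Plau), 17499962 (Plat) and 17333267 (Plg), 1 for each gene.

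Mouse cells of strain 129 gave 7 RNA samples, each measured on 1 Affymetrix whole-transcript array. Pluripotent cells without a Nanog mutation (wild type, WT) were represented by 1 array of embryonic stem cells (ESC) and 2 arrays of iPSC, and Nanog knockout (KO) cells by 2 arrays of iPSC. MEF had 1 array for each of the WT and Nanog KO genotypes. Growth media are listed as ESC, MEF or 2i/LIF medium but not assigned to cells, all cells were harvested with trypsin, and each array took 73.5 ng of total RNA, from which 5.5 ug of cDNA was labelled. The labels call the iPSC replicates biological. Whether the 2 KO iPSC arrays came from separate lines is not stated, and neither is the form of the Nanog allele, so p-values measure only the spread between these samples, which may be technical. Nanog, the homeobox factor of the pluripotent state, read 12.73 to 12.84 on the log2 scale on the WT pluripotent arrays and 7.44 to 7.50 on the KO iPSC arrays, so its signal followed the labels there. In MEF it was near background with either genotype, at 6.53 in WT and 6.42 in KO, and gave no check of the genotype.

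Background was set at the 95th percentile of 1394 genes for vomeronasal and olfactory receptors, and lay between 6.30 and 6.50 (log2) on the 7 arrays, with 61.0% to 63.7% of genes above it. Pluripotent cell markers had medians of 11.48 to 11.97 on the WT pluripotent arrays, 10.10 and 10.14 in KO iPSC and 6.19 to 6.27 on the MEF arrays. In KO against WT iPSC 6 of 15 were called lower and 1 higher, where 9.55% of all genes were called lower and 6.93% higher. The 6 include Nanog, the gene knocked out, whose call follows from the design. Fibroblast markers had medians of 11.001 and 11.97 on the MEF arrays. On the pluripotent arrays their median was 6.91 to 9.09, highest on WT iPSC replicate 1, where 23 of 25 lay above background. In bulk RNA, fewer cells of a type and less RNA per cell cannot be told apart.

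Urokinase is secreted as a precursor, binds the receptor encoded by Plaur at the cell surface, and is there converted to the active protease. Urokinase and tissue-type activator both cleave plasminogen to plasmin, which degrades fibrin and matrix proteins and activates matrix metalloproteinases and latent growth factors. The receptor has a lipid anchor and no cytoplasmic part, and is known to act together with integrins and vitronectin in adhesion and migration. Serpins block the activators, and receptors of the Lrp family remove the resulting complexes from the cell surface. Fibroblasts, macrophages and migrating cells are known sites of this system.

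The promoter of Plaur is shown because this gene carries the genotype difference. The sequence is the 250 bases before its annotated start in RefSeq (GRCm38.p6, chr7:24462233-24462482, plus strand), with capitals on the letters TGANTCA. These letters, with N any base, were used to search for the site bound by AP-1 factors (dimers of the Fos and Jun families), and can match more than that site. Of the measured members, Plaur was the 1 gene matched in the promoter table.
Plaur: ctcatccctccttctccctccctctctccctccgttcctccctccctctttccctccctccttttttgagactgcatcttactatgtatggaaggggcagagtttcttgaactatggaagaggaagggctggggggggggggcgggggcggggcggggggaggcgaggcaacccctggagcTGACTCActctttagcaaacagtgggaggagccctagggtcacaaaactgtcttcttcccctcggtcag

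This window held 1 match to TGANTCA, read as TGACTCA, with its first base 69 bases before the start. The letters were searched on both strands of windows of the same length, and 6.75% of the 32851 promoters in the table held at least 1 match. The GC box letters GGGCGG, which Sp1-type factors bind, occurred 3 times, at 111, 105 and 100 bases before the start, and 32.7% of all promoters held at least 1. The cAMP response element letters TGACGTCA occurred 0 times in the Plaur window and were held by 1.55% of promoters. A match is a stretch of letters and not a measured binding site.

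In the pathway, 8 of 55 promoters (of 40 genes with an entry) held TGANTCA, 14.5% against 6.75% of all promoters. The 8 include that of Plaur, and 2 of them are entries of Serpinb2 that hold the same site. The windows of Anxa2, Mmp3 and Mmp13 are shown because these genes are described among the results, and that of Gja1 because it was among the 5 genes whose values ran most like those of Plaur. Of those 5 genes 4 had promoters in the table, 6 in all, and Phlda1 had 0. Of the 6 promoters 1, that of Gja1, held the letters. The matched windows of Bdnf, Fgb and Serpinb2 are not shown, and the matches of Bdnf and Serpinb2 read TGAATCA. The windows shown lie at chr10:56377264-56377299 (Gja1), chr9:69453571-69453611 (Anxa2), chr9:7445759-7445799 (Mmp3) and chr9:7272462-7272502 (Mmp13), all on the plus strand of GRCm38.p6, with capitals again on the match.
Gja1: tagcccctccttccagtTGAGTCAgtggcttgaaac
Anxa2: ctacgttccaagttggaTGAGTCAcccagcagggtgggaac
Mmp3: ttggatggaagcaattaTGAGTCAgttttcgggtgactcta
Mmp13: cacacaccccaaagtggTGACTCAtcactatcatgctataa

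The urokinase receptor gene was high in KO iPSC and in WT MEF and lower everywhere else. The Plaur level (log2 intensity) was 8.85 in WT ESC, 8.82 and 9.03 on the WT iPSC arrays, 11.46 and 11.48 in KO iPSC, 11.19 in WT MEF and 9.10 in KO MEF. The KO iPSC arrays stood above all 3 WT pluripotent arrays, and the WT MEF array stood above the KO MEF array. All 7 values lay above background. In iPSC the mean was 11.47 in KO and 8.93 in WT, a difference of 2.54 (5.83-fold). Against the 3 WT pluripotent arrays it was 2.57 (5.94-fold). In MEF the difference had the opposite sign, -2.09, with WT 4.26-fold above KO on 1 array each. The iPSC difference minus the MEF difference was 4.63.

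From highest to lowest the Plaur levels ran KO iPSC, WT MEF, KO MEF, WT iPSC replicate 2, WT ESC and WT iPSC replicate 1. The WT iPSC arrays were 0.21 apart and the KO iPSC arrays 0.02 apart. WT ESC fell inside the range of the WT iPSC arrays, and KO MEF lay above that range by less than its width, so neighbours in the order of these 4 low arrays were closer than that spread, while KO MEF and WT iPSC replicate 1, at its ends, were further apart than it. WT MEF lay below both KO iPSC arrays by more than 0.21, though MEF have no replicates of their own. Over both genotypes the mean Plaur difference of iPSC minus MEF was 0.05, and as it is made of the same values it is a description too. It was -2.26 without the KO MEF array and 2.37 without the WT MEF array.

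**Figure D1:**
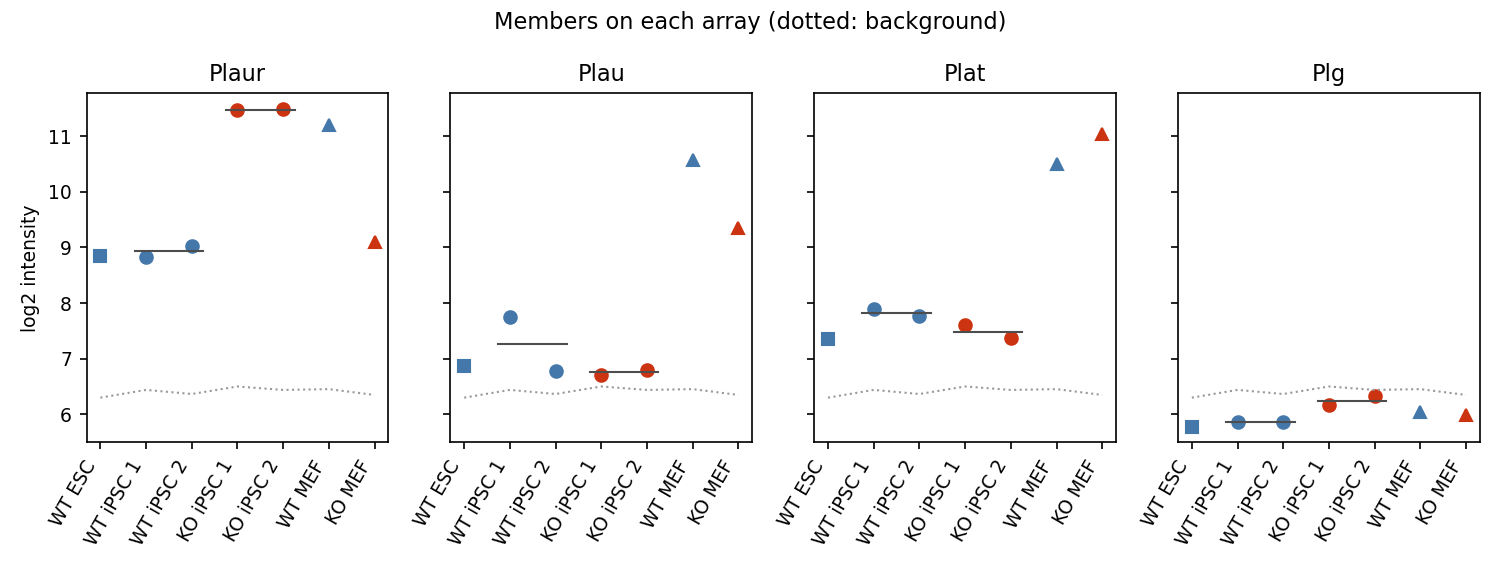
Log2 intensity of Plaur, Plau, Plat and Plg on each of the 7 arrays (blue, WT; red, KO; squares, ESC; circles, iPSC; triangles, MEF), with bars at the means of the iPSC groups and a dotted line at background. Plaur is high in KO iPSC (11.46 and 11.48) and WT MEF (11.19), Plau and Plat are high in MEF, and Plg is under the line on every array.

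Among all genes this combination was rare. At a 4-fold limit in both cell types, Plaur was the 1 gene of 22180 that was higher in KO than WT iPSC and lower in KO than WT MEF (0.00451% of genes). At 2-fold, 30 genes (0.135%) had this combination and 44 (0.198%) had the reverse one. These counts describe how the gene was chosen and carry no test. Between the MEF arrays other cell type markers differed as well. The macrophage markers had a median of 7.56 in WT MEF, where 12 of 14 lay above background, and 6.93 in KO MEF, where 9 did. Their summed intensity was 4311 in WT MEF, 2479 in KO MEF and 2755 to 3425 on the other 5 arrays. Of the 14, 1 was at least 2-fold lower in KO MEF (7.14%, where 4.56% of all genes were past 2-fold in either direction). This was Lyz2, the lysozyme of macrophages, which read 10.42 in WT MEF and 8.31 in KO MEF. Adgre1, which encodes a surface receptor of macrophages, read 6.80 in WT MEF and lay below background in KO MEF. The summed intensity of the fibroblast markers was 76515 in WT MEF and 104672 in KO MEF, and Lum, a matrix proteoglycan gene, read 5.09 and 10.60. The part of these differences in the Plaur values was not tested.

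**Figure D2:**
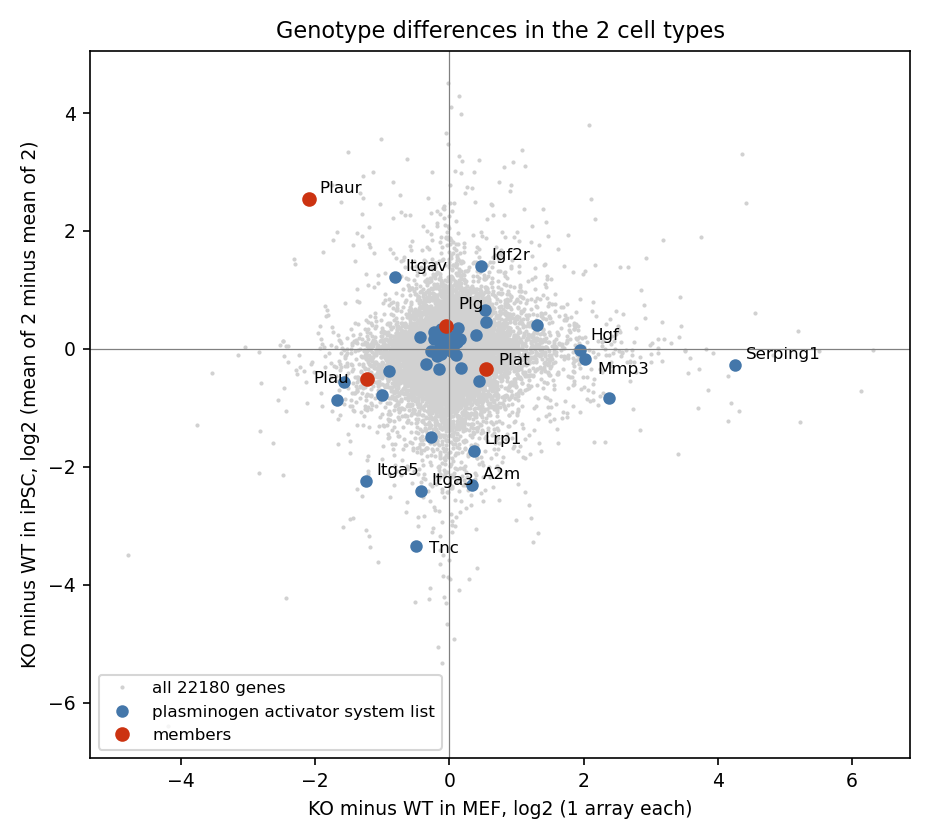
KO minus WT difference (log2) in MEF (horizontal; 1 array each) against that in iPSC (vertical; mean of 2 minus mean of 2) for 22180 genes, with the pathway list in blue and the measured members in red. Plaur sits alone among the members at -2.09 and 2.54, and Serping1 lies far to the right at 4.26.

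The protease that binds the receptor was not called in iPSC, and in MEF its value was lower in KO, as that of Plaur was. Plau read 6.86 in WT ESC, 7.75 and 6.78 on the WT iPSC arrays, 6.71 and 6.80 in KO iPSC, 10.57 in WT MEF and 9.35 in KO MEF. Both MEF arrays stood above every pluripotent array, and WT iPSC replicate 1 was the highest of the pluripotent ones. In iPSC the Plau difference was -0.51 ± 0.316 (SE, KO minus WT, n = 2 and 2 arrays; limma adjusted p = 0.34), and the KO and WT ranges overlapped. Against the WT pluripotent arrays it was -0.38 ± 0.299 (limma adjusted p = 0.44). The Plau difference in iPSC depended on which WT iPSC array was in it. Without replicate 2 it was -0.996, and without replicate 1 it was -0.03. With 1 WT iPSC array left, the replicate spread in this fit came from the 2 KO iPSC arrays alone, so no p-value is given. On WT iPSC replicate 1 the fibroblast markers summed to 25111, against 8944 on replicate 2, 12317 in WT ESC and 3483 to 3575 in KO iPSC, and the part of this in the Plau values was not tested.

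Plat, the activator best known from the vessel wall and the nervous system, read 7.35 in WT ESC, 7.89 and 7.76 on the WT iPSC arrays, 7.60 and 7.37 in KO iPSC, 10.49 in WT MEF and 11.04 in KO MEF. MEF were again above all pluripotent arrays, and both KO iPSC arrays were below both WT iPSC arrays. The Plat difference in iPSC was -0.34 ± 0.116 (limma adjusted p = 0.12), and against the WT pluripotent group -0.18 ± 0.178 (adjusted p = 0.53), with WT ESC the lowest value of all. Neither passed the test. In MEF, with 1 array each and no test, KO minus WT was 0.55 for Plat and -1.22 for Plau, so KO MEF had the lower Plau and the higher Plat value.

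Both activator genes were lower in iPSC than in MEF. Plau fell by 2.95 on the log2 scale (7.71-fold; SE 0.311; limma adjusted p = 0.0024), and Plat fell by 3.11 (8.63-fold; SE 0.219; adjusted p = 0.00097). These calls held with each array left out in turn. The genotype difference of Plau in iPSC minus that in MEF was 0.71 ± 0.547 (limma adjusted p = 0.49), and for Plat it was -0.89 ± 0.2 (adjusted p = 0.063). Without WT iPSC replicate 1 these values were 1.19 for Plau and -0.83 for Plat, and without WT iPSC replicate 2 they were 0.23 and -0.95. In both cases the replicate spread came from the KO iPSC pair alone. MEF have 1 array for each genotype and ESC 1 array, so neither has replicates of its own. The tests of ESC against WT iPSC and of the genotype difference between cell types take their replicate spread from the iPSC arrays. The fit of iPSC against MEF holds the cell type difference equal in both genotypes, so a departure from that also enters its spread. In the fit against the WT pluripotent group, the distance of WT ESC from WT iPSC enters the spread too.

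Plg, the zymogen that the activators cleave and a product mainly of the liver, read 5.78 in WT ESC, 5.87 and 5.86 on the WT iPSC arrays, 6.17 and 6.33 in KO iPSC, 6.04 in WT MEF and 5.99 in KO MEF. Every one of these values was below background on its array. The KO iPSC values stood above the 3 WT pluripotent values. Their difference, 0.41 ± 0.0891 (SE; limma adjusted p = 0.033), passed the test, but between signals that are both below background, and no fold is given. The call was lost without WT ESC (adjusted p = 0.058), WT iPSC replicate 2 (0.081), KO iPSC replicate 1 (0.13) or KO iPSC replicate 2 (0.22). Against WT iPSC alone the Plg difference was 0.39 (limma adjusted p = 0.058), and it passed with median centring of the arrays (0.045). Of the 3 members tested against the WT pluripotent group, Plg was therefore the 1 called, where 15.7% of all 22180 genes were called. None of the 3 was called by limma in KO against WT iPSC (2 had an unadjusted p under 0.05), where 16.5% of all genes were, and 2 of 3 were called between iPSC and MEF, where 30.7% were.

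The rest of the system was read from a list of 54 genes in 4 roles, of which 48 were measured and 36 lay above background on at least 1 array. The comparisons of KO iPSC with the WT pluripotent group and with WT iPSC share the KO iPSC and WT iPSC arrays, so their counts are set side by side and not combined. Apart from Plaur, 47 genes of the list were tested. Against the WT pluripotent group 5 were higher and 5 lower in KO iPSC (median difference 0.00, all genes 0.03), where 6.89% of all genes were called higher and 8.81% lower. Against WT iPSC 4 were higher and 6 lower (median -0.04, all genes 0.03), where 6.93% and 9.55% of all genes were. With the share of all genes called at 15.7% and 16.5%, these 10 of 47 in each comparison (21.3%) are not far from the background share, and the list was not tested as a set. The number depended on having both KO iPSC arrays, and so did that of all genes. With either of them left out, or their mean used as 1 array, fewer genes of the list and fewer of all genes were called. In those fits the replicate spread came from WT arrays alone. A2m, Igf2r and Itga5 kept their calls in each comparison. Against WT iPSC the count rose with either WT iPSC array left out, as did that of all genes. The replicate spread of these fits came from the KO iPSC pair alone. Of all calls against the WT pluripotent group 43.9% were higher in KO, and 54.1% with median centring of the arrays.

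Among receptors and binding partners, some integrin genes and a clearance receptor gene were lower and a few other genes higher in KO iPSC. Of 17 tested without Plaur, 3 were higher and 3 lower against the WT pluripotent group, and 3 and 4 against WT iPSC, where 15.7% and 16.5% of all genes were called. In the same comparisons 5 and 2 of 25 fibroblast markers were called lower and 1 higher in KO iPSC (median -0.88 and -0.92), with summed intensities of 3483 to 3575 in KO iPSC and 8944 to 25111 on the WT pluripotent arrays. The part of this in the receptor values was not tested. Itga5, the alpha chain of the fibronectin receptor and a known partner of the urokinase receptor, read 10.50 in WT ESC, 10.92 and 10.51 on the WT iPSC arrays and 8.45 and 8.50 in KO iPSC. Those groups did not overlap, and Itga5 fell by 2.24 in KO against WT iPSC (4.73-fold; SE 0.155; limma adjusted p = 0.0022). Itga3, which pairs with Itgb1 as a laminin receptor, read 9.32, 9.16 and 9.98 on the WT pluripotent arrays and 7.05 and 7.27 in KO iPSC. It fell by 2.42 (5.34-fold; limma adjusted p = 0.0073), a call lost when either KO iPSC array was left out (0.064 and 0.053).

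Itgav, the alpha chain of the vitronectin receptor, went the other way. It read 10.15 in WT ESC, 10.66 and 10.01 on the WT iPSC arrays, 11.55 and 11.56 in KO iPSC, 12.56 in WT MEF and 11.75 in KO MEF. The KO iPSC values lay above the WT pluripotent ones and below both MEF values, and Itgav rose by 1.22 against WT iPSC (2.33-fold; SE 0.221; limma adjusted p = 0.024). Without KO iPSC replicate 1 or 2 its adjusted p was 0.14 and 0.13. Its partner chains differed less in iPSC. In KO against WT iPSC Itgb3 was lower by 0.56 (SE 0.12; limma adjusted p = 0.039), a call lost with either KO iPSC array left out. The Itgb1 difference was -0.26 (limma adjusted p = 0.51), with -0.60 without WT iPSC replicate 2 and 0.09 without replicate 1. In MEF the KO minus WT values of Itgav, Itgb3 and Itga5 were -0.81, -1.56 and -1.25, on 1 array each.

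Lrp1, the receptor that takes up urokinase bound to its inhibitor, read 9.37 in WT ESC, 10.32 and 9.09 on the WT iPSC arrays, 7.98 and 7.98 in KO iPSC, 11.64 in WT MEF and 12.003 in KO MEF. KO iPSC lay below every other array. Lrp1 fell by 1.73 against WT iPSC (3.31-fold; SE 0.396; limma adjusted p = 0.045), which was lost with quantile normalization (0.063), with eBayes with trend and robust settings (0.11), and without KO iPSC replicate 1 or 2 (0.20 and 0.19). Lrpap1, the chaperone of that receptor family, was higher in KO iPSC by 0.65 (limma adjusted p = 0.018), on values of 11.26 and 11.24 against 10.71 and 10.49. Igf2r, the mannose 6-phosphate receptor that binds both the urokinase receptor and plasminogen, read 9.64 and 9.37 on the WT iPSC arrays and 10.90 and 10.93 in KO iPSC, and rose by 1.41 (2.65-fold; SE 0.119; limma adjusted p = 0.0036). The Lrpap1 call was lost with either KO iPSC array left out (0.15 and 0.14), and the Igf2r call was kept.

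Other direct partners did not pass in iPSC. Mrc2, an endocytic collagen receptor that associates with the urokinase receptor, read 8.32 and 7.44 on the WT iPSC arrays and 7.34 and 7.34 in KO iPSC, a difference of -0.54 ± 0.291 (limma adjusted p = 0.28). Without WT iPSC replicate 2 the Mrc2 difference was -0.98, and without replicate 1 it was -0.10. Anxa2, a surface docking protein for plasminogen and Plat, differed by -0.35 (limma adjusted p = 0.29), with -0.63 without WT iPSC replicate 2 and -0.07 without replicate 1. Its light chain S100a10 differed by -0.09 (adjusted p = 0.65) and the plasminogen receptor gene Plgrkt by -0.04 (adjusted p = 0.90). Vtn, which encodes vitronectin, the matrix ligand of the urokinase receptor, lay below background on all 7 arrays (6.13 to 6.28).

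Among the inhibitors, 1 of 8 tested (12.5%) was called in each of these comparisons, near the 15.7% and 16.5% of all genes. A2m, a broad protease trap of plasma, read 9.57 in WT ESC, 9.17 and 9.69 on the WT iPSC arrays, 7.13 and 7.10 in KO iPSC, 6.68 in WT MEF and 7.02 in KO MEF. The KO iPSC values were close to those of MEF and apart from the WT pluripotent arrays, and A2m fell by 2.31 against WT iPSC (4.97-fold; SE 0.184; limma adjusted p = 0.0032). The inhibitors Serpine3, Serpinb2, Serpini1, Serpina5 and Pzp were below background on every array.

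Of the 15 substrates and plasmin-activated factors, 1 was higher and 1 lower in KO iPSC in both comparisons (13.3%, again near the share of all genes). Tgfb1, a growth factor whose latent form plasmin can activate, read 9.29 in WT ESC, 9.59 and 9.12 on the WT iPSC arrays and 7.74 and 7.98 in KO iPSC. The groups were apart, and Tgfb1 fell by 1.497 against WT iPSC (2.82-fold; SE 0.185; limma adjusted p = 0.0086; 0.073 and 0.055 without KO iPSC replicate 1 or 2). Lamc1, a laminin chain, was higher by 0.46 (limma adjusted p = 0.025; 0.18 and 0.21 without those arrays). Lamc1 and Lrpap1 are below the 2-fold limit used to choose names and were named after their values were seen. Tnc, the matrix protein tenascin C, read 11.58 and 8.35 on the WT iPSC arrays and 6.58 and 6.65 in KO iPSC, a difference of -3.35 ± 1.02 that did not pass (limma adjusted p = 0.092). Without WT iPSC replicate 1 the Tnc difference was -1.74, and without replicate 2 it was -4.97. In those fits the replicate spread came from the KO iPSC pair alone and left out that of the WT arrays.

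**Figure D3:**
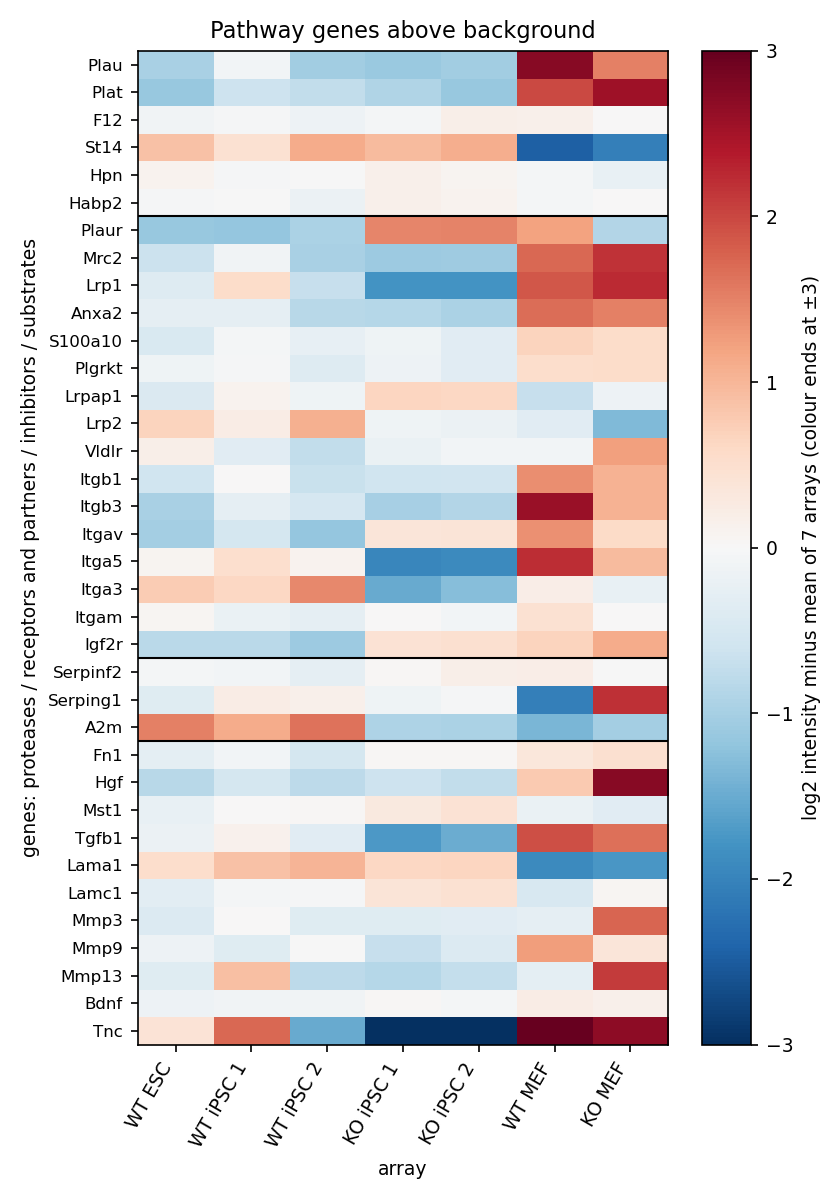
Each of the 36 pathway genes above background on at least 1 array (rows, grouped by role) on the 7 arrays (columns), coloured by log2 intensity minus the gene's mean, with colours ending at 3 either side. Lrp1, Itga5, Itga3 and Tgfb1 are blue in KO iPSC while Plaur, Itgav and Igf2r are red, and most receptor genes are red in MEF.

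Between WT ESC and WT iPSC, none of the 47 pathway genes was called by limma, where 0.162% of all genes were, and 9 had an unadjusted p under 0.05. With eBayes with trend and robust settings the count was also 0. The count rose with either WT iPSC array left out, as did that of all genes. The replicate spread of these fits came from the KO iPSC arrays alone. The Plau difference was -0.40 (limma adjusted p = 0.77) and that of Plat -0.47 (adjusted p = 0.30). For Plau it was -0.89 without WT iPSC replicate 2 and 0.08 without replicate 1.

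Between iPSC and MEF, most of the pathway genes called were lower in iPSC. Of the 47 tested without Plaur, 5 were higher and 17 lower in iPSC, 46.8% against 30.7% of all genes (16% higher and 14.7% lower), with a median of -0.17 (all genes 0.03). The count was 14 when genotype was left out of the fit, where 2653 of all genes were called higher and 2638 lower. This lost the calls of Igf2r, Itga5, Lrpap1, Lrp2, Vldlr, Lamc1, Fn1 and Tnc. Receptors and partners held 10 of the lower calls and 2 of the higher ones, of 17 tested. Mrc2 read 7.34 to 8.32 on the 4 iPSC arrays and 10.14 and 10.58 in MEF, and in iPSC fell by 2.75 (6.73-fold; SE 0.327; limma adjusted p = 0.0035). Anxa2 read 9.48 to 10.15 in iPSC and 12.10 and 11.94 in MEF, and fell by 2.32 (4.99-fold; adjusted p = 0.0011). In neither gene did iPSC and MEF overlap.

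Its partner S100a10 fell by 0.81 (adjusted p = 0.0049) and Plgrkt fell by 0.76 (adjusted p = 0.010) from MEF to iPSC. The integrin chains Itgb3, Itga5 and Itgb1 were lower in iPSC, with differences of -2.48, -2.40 and -1.67 (limma adjusted p = 0.0021, 0.0025 and 0.0035). Lrp1 was lower by 2.98 (7.89-fold; adjusted p = 0.014), and without KO iPSC replicate 1 or 2 its adjusted p was 0.051 in either case. Igf2r (-1.14) and Vldlr (-0.92) were lower and Lrp2, which encodes megalin, higher (1.08), but each of these 3 calls was lost without at least 1 array. For Igf2r this was WT iPSC replicate 1, for Lrp2 either KO iPSC array or KO MEF, and for Vldlr WT iPSC replicate 2, either KO iPSC array or KO MEF.

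Of the 7 proteases, St14 (matriptase, an epithelial membrane protease that activates urokinase) was higher in iPSC and Plau and Plat lower. St14 read 9.75 to 10.41 in iPSC against 6.85 in WT MEF and 7.25 in KO MEF, and was higher by 3.15 (8.88-fold; SE 0.197; limma adjusted p = 0.000803). Among 15 substrates, Lama1, a laminin chain of early embryonic basement membrane, was higher by 2.62 (6.15-fold; adjusted p = 0.00052), and Lamc1 by 0.40. Tgfb1 was lower by 2.65 (6.30-fold; adjusted p = 0.0033) and Mmp9, a gelatinase, fell by 1.18 (2.27-fold; adjusted p = 0.0072). Hgf, the precursor of hepatocyte growth factor, lay below background on all 4 iPSC arrays and in WT MEF (6.43), and read 8.37 in KO MEF. Its MEF mean of 7.40 makes it at least 1.95-fold lower in iPSC (measured difference -2.43; limma adjusted p = 0.012). This bound rests on the KO MEF array, and the genotype difference of Hgf itself differed between iPSC and MEF (-1.96). The calls for Tnc (-4.48), Fn1 (-0.54) and Lamc1 were lost with either KO iPSC array left out, for Tnc also without WT iPSC replicate 2 or KO MEF, and for Fn1 with either MEF array left out. None of 8 inhibitors was called by limma, and 0 had an unadjusted p under 0.05. This fit holds the cell type difference equal in both genotypes, and a departure from that widens its residual spread. Such departures were called for A2m (-2.65) and Serping1 (-4.53), and the Serping1 difference was 2.26 without KO MEF. For these genes the fit cannot show that iPSC and MEF are alike. Serpine3, Serpinb2, Serpini1, Serpina5 and Pzp were below background on every array.

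The MEF arrays, 1 for each genotype, also differed in other genes of the system. Apart from Plaur, 5 of 47 measured genes were at least 2-fold higher and 4 at least 2-fold lower in KO MEF (19.1%), where 4.56% of all genes were past 2-fold in either direction, 2.8% higher and 1.77% lower. The lower ones were Plau, Itgb3, Itga5 and Serpinb2, the last below background on both arrays. The higher ones were Vldlr (by 1.31), Serping1, Hgf, Mmp3 and Mmp13. Serping1, the C1 inhibitor, read 6.33 in WT MEF, below background, and 10.58 in KO MEF, at least 17.5-fold higher (measured difference 4.26). Hgf read 6.43 and 8.37 (at least 3.78-fold higher), the stromelysin gene Mmp3 5.43 and 7.45 (at least 1.99-fold) and the collagenase gene Mmp13 5.53 and 7.91 (at least 2.74-fold). These differences have no replicate check, and the fibroblast markers Lum, Dcn (7.99 and 12.19) and Pdgfra (8.003 and 11.11) were higher on the same array. Their part in these values was not tested.

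A genotype difference that itself differed between iPSC and MEF was called for 5 of 47 pathway genes besides Plaur, 1 higher and 4 lower in iPSC (all genes 8.55%, with 3.07% higher and 5.48% lower). They were Itgav (2.03; limma adjusted p = 0.041), Serping1 (-4.53; 0.0034), A2m (-2.65; 0.015), Hgf (-1.96; 0.012) and Mmp3 (-2.19; 0.015). The Itgav call was lost with quantile normalization (0.053) and with eBayes with trend and robust settings (0.058). With either KO iPSC array left out all calls but that of Serping1 were lost. Without WT iPSC replicate 1 or 2 the count rose, as did that of all genes. The replicate spread of these fits came from the KO iPSC pair alone. With median centring of the arrays, the median of all genes in this comparison was 0.12, against which such values are to be read.

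Plaur belongs to the family of proteins with uPAR/Ly6 domains, of which 31 of 34 listed genes were measured and 30 tested apart from Plaur. In KO iPSC 2 were higher and 1 lower in either comparison (10%), where 15.7% and 16.5% of all genes were called. Ly6e, a widely expressed lipid-anchored family member, read 11.06 in WT ESC, 11.003 and 11.13 on the WT iPSC arrays and 9.57 and 9.80 in KO iPSC, and fell by 1.38 against WT iPSC (2.61-fold; SE 0.116; limma adjusted p = 0.0036). Cd59a, a complement inhibitor, read 8.61, 8.87 and 8.52 on the WT pluripotent arrays and 9.63 and 9.54 in KO iPSC, and was higher by 0.89 (adjusted p = 0.016; 0.13 and 0.10 without KO iPSC replicate 1 or 2). Lypd8 was called against the WT pluripotent group (0.46) and Ly6g6c against WT iPSC (0.45), both lost with either KO iPSC array left out, and Lypd8 also without WT ESC or WT iPSC replicate 2. Cd59a and Lypd8 were named after their values were seen. The family's median difference was 0.04 against WT iPSC (all genes 0.03).

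In the family, 3 of 30 genotype differences (10%) differed between iPSC and MEF by the test, near the 8.55% of all genes. Lypd6 had 0.26 in iPSC and -0.75 in MEF, a difference of 1.01 (limma adjusted p = 0.045). Ly6c2 read 6.04 and 6.06 in WT iPSC, 6.34 and 6.53 in KO iPSC, 6.42 in WT MEF and 8.93 in KO MEF, and was at least 5.57-fold higher in KO than WT MEF (interaction -2.12; adjusted p = 0.0079). For Ly6e the interaction was -1.36 (adjusted p = 0.024). Without KO iPSC replicate 1 all 3 calls were lost, and without replicate 2 those of Lypd6 and Ly6e.

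Genes of the AP-1 and ETS families, whose products are known to act on the promoter of the human urokinase receptor gene, were tested as a list of 14, of which 13 were measured. Against WT iPSC 7 were higher and 2 lower in KO iPSC, and against the WT pluripotent group 3 and 2. These are 69.2% and 38.5% of the list, where 16.5% and 15.7% of all genes were called. Jun read 10.11 in WT ESC, 9.26 and 8.59 on the WT iPSC arrays, 11.35 and 11.25 in KO iPSC, 11.04 in WT MEF and 10.96 in KO MEF. KO iPSC were above every other array, and Jun rose by 2.37 against WT iPSC (5.18-fold; SE 0.23; limma adjusted p = 0.0047; 0.050 without KO iPSC replicate 1). Unlike the Plaur values, the Jun values of the MEF arrays differed little by genotype, by -0.08, and the test of that difference between cell types gave 2.45 (adjusted p = 0.030; 0.12 and 0.11 with either KO iPSC array left out).

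Fos and Fosb spread widely among the WT arrays. Fos read 10.02 in WT ESC, 8.91 and 6.95 on the WT iPSC arrays and 10.70 and 10.72 in KO iPSC, a rise of 2.77 against WT iPSC (limma adjusted p = 0.043) that did not pass against the WT pluripotent group (2.08; adjusted p = 0.16). Fosb read 9.81, 8.78 and 6.77 on the WT pluripotent arrays and 11.36 and 11.30 in KO iPSC, a rise of 3.56 against WT iPSC (adjusted p = 0.023). With eBayes with trend and robust settings the adjusted p was 0.14 for Fos and 0.098 for Fosb, and with either KO iPSC array left out it was 0.12 to 0.19 for both. Smaller rises against WT iPSC were called for Maff (0.76), Etv1 (0.82), Jund (0.74) and Junb (0.49), all lost when either KO iPSC array was left out.

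Ets2 went the other way. It read 9.38 in WT ESC, 10.18 and 10.25 on the WT iPSC arrays, 8.13 and 8.31 in KO iPSC, 9.75 in WT MEF and 9.76 in KO MEF, and fell by 1.99 against WT iPSC (3.98-fold; SE 0.103; limma adjusted p = 0.0013). KO iPSC lay below every other array and the MEF arrays differed little, so the test between cell types gave -1.999 (adjusted p = 0.0085; 0.058 and 0.052 with either KO iPSC array left out). Etv5 was lower by 0.38 (adjusted p = 0.045), and this turned to 0.019 when its probe sets were averaged and was lost without WT iPSC replicate 2 or either KO iPSC array. Junb, Jund and Maff were named after their values were seen.

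Genes whose values ran most like Plaur were found by Pearson correlation over the 7 arrays among 6941 genes above background with a range of at least 1 log2 unit. As the 7 points include replicate pairs and a gene chosen for its pattern, the coefficients are descriptions. The closest were Phlda1 (0.989), Gja1 (0.981), Zbtb38 (0.973), Nt5dc3 (0.965) and Tmem47 (0.963). Phlda1, which encodes a pleckstrin-homology-like protein, read 7.67 in WT ESC, 8.05 and 8.35 on the WT iPSC arrays, 10.24 and 10.13 in KO iPSC, 9.86 in WT MEF and 8.19 in KO MEF. Gja1, the gap junction protein connexin 43, read 10.90, 10.65 and 10.88 on the WT pluripotent arrays, 11.83 and 11.80 in KO iPSC, 11.53 in WT MEF and 10.93 in KO MEF. All 5 were highest in KO iPSC, next in WT MEF, and lower on the other 4 arrays.

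**Figure D4:**
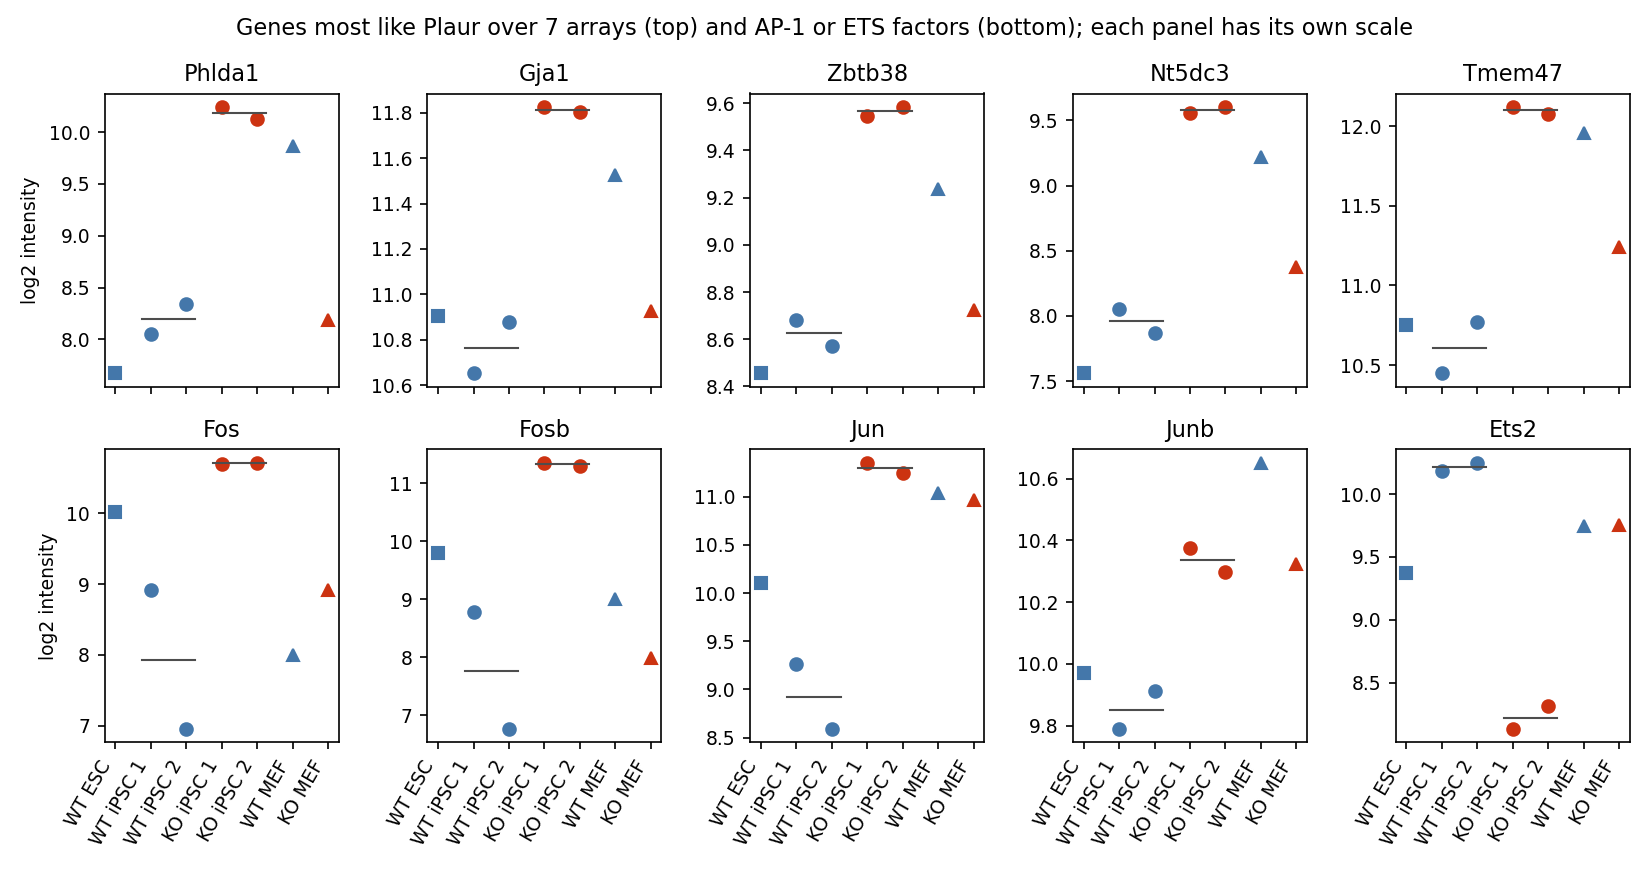
Log2 intensity on the 7 arrays of the 5 genes most like Plaur (top) and of Fos, Fosb, Jun, Junb and Ets2 (bottom); each panel has its own scale, blue marks WT, red marks KO, and bars are the means of the iPSC groups. The top row is high in KO iPSC and WT MEF, while Jun and Ets2 differ by genotype in iPSC but little between the MEF arrays.

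For Plau the closest genes were Zfp469, Bmpr1b and D230004N17Rik, each at 0.996, and for Plat they were Mir181b-1 (0.999), Nfic (0.996) and Mamdc2 (0.996). These followed the step from pluripotent cells to MEF. Zfp469 read 6.39 to 6.97 on the ESC and iPSC arrays, 9.60 in WT MEF and 8.48 in KO MEF, with the lower value in KO MEF as for Plau. Nfic read 8.82 to 9.18 on the pluripotent arrays, 10.43 in WT MEF and 10.72 in KO MEF, with the higher value in KO MEF as for Plat.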

How the data were processed

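RNA of 7 samples was measured on single-colour arrays. The deposited table gives the linear intensity of 33649 probe sets on each array (9.67 to 13043). Per the submitters' processing notes, the authors used RMA in Affymetrix Expression Console (version 1.3.0.187). Here log2 was taken, with no further normalization. The array annotation gives 1 symbol to 23521 probe sets, several to 1814, and does not list 8314. The probe set with the highest mean stood for a gene, which gave 22180 genes. No column lay outside the mapped samples (0).

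Tests were per gene and two-sided, with limma 3.58.1 in R 4.3.3 (lmFit, eBayes) and Benjamini-Hochberg adjustment over all 22180 genes, called at an adjusted p under 0.05. KO iPSC against the WT pluripotent group used 5 arrays, iPSC against MEF 6 arrays with genotype as a covariate, and the other comparisons 1 fit of 7 arrays. MEF genotypes, with 1 array each, were not tested, and Plaur was tested in no comparison, since its values chose it (a planned iPSC against MEF test was dropped). The scripts were tested on simulated data. Where the dim side lay below background on every array, folds are lower bounds against that background. Alternatives were other normalizations, filters and eBayes settings, averaged probe sets, averaged KO iPSC arrays, a replicate block and leaving out each array.

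The members, the gene lists and the rules were chosen with earlier results of these data known. Named are the members and their direct partners, listed genes called with at least a 2-fold difference (at most 5 a direction), and the genes most like each member. Arrays have no read depth, and their number limits the precision. Serpine2 and some other listed pathway genes were not analysed here. Promoter sequences are from RefSeq (GRCm38.p6).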

Additional observations from a re-analysis of the deposited data

Results flagged for a closer look

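In 10 genes of the lists the KO minus WT difference in iPSC differed at least 2-fold from that in MEF by the test of that difference (limma, adjusted over all genes), with 1 MEF array for each genotype. With no fold limit, 1 was called higher and 4 lower of 47 pathway genes, and 1 and 2 of 30 uPAR/Ly6 genes. Of 13 AP-1 and ETS genes 2 and 1 were, where 8.55% of all genes were called. Cell type markers were not searched, and 6 of 25 fibroblast markers were called, all lower. Their part in these values was not tested. Within the pathway the iPSC difference minus the MEF difference was 2.03 for Itgav (1.22 in iPSC and -0.81 in MEF), -4.53 for Serping1 (-0.27 and 4.26), -2.65 for A2m (-2.31 and 0.34), -1.96 for Hgf (-0.02 and 1.94) and -2.19 for Mmp3 (-0.17 and 2.02). Among relatives of Plaur it was -1.36 for Ly6e (-1.38 and -0.02), 1.01 for Lypd6 (0.26 and -0.75) and -2.12 for Ly6c2 (0.39 and 2.51). Among the transcription factors it was 2.45 for Jun (2.37 and -0.08) and -1.999 for Ets2 (-1.99 and 0.01). For Serping1, Hgf, Mmp3, Ly6c2 and Lypd6 the larger part lay between the MEF arrays, and for A2m, Ly6e, Jun, Ets2 and Itgav in iPSC. The samples of each group are too few (at most 2) for a check of single outlying arrays.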

How the results depend on the processing

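The Plaur difference between KO and WT iPSC, which chose the gene, lay between 2.44 and 2.65 under every setting run. Only median centring, quantile normalization and leaving out an iPSC array could change it. The MEF differences of the 4 members moved by at most 0.058 under median centring and quantile normalization. For each member this was less than the pooled SD of its iPSC replicates (0.083 for Plg to 0.486 for Plau). Averaged probe sets could not move these values, since each of the 4 has 1 probe set. Counts of called pathway genes moved by over 1.5 times with the KO iPSC mean as 1 array, in both comparisons with KO iPSC. In iPSC minus MEF they did so without genotype (14) and with a replicate block (14), and in the interaction without the dimmest genes (3). With each of these settings fewer of all genes were called too. In iPSC minus MEF 3540 of all genes were called higher and 3262 lower in the main fit. These counts were 2653 and 2638 without genotype, and 1841 and 1786 with the block. With each array left out in turn they ran from 3 to 13 (WT pluripotent group), 3 to 20 (WT iPSC), 0 to 13 (ESC), 16 to 25 (iPSC minus MEF) and 1 to 21 (interaction). Fits with 1 WT iPSC array gave the highest counts against WT iPSC, in ESC and in the interaction. Their replicate spread was that of the KO iPSC pair alone. Where leaving out an array changed a pathway count, the count over all genes changed in the same direction. The labels state no pairing of same-numbered iPSC arrays, and the correlation of their deviations (0.017) cannot exclude a shared batch. With a replicate block 9, 14 and 6 genes were called in KO against WT iPSC (without Itgb3), iPSC minus MEF (without Fn1, Hgf, Igf2r, Lamc1, Lrp1, Lrp2, Tnc and Vldlr) and the interaction (with Itga3 added). Of 2909 values of named genes under alternatives 93 turned sign, 4 of them with the main or the alternative value past the threshold. These 4 were Etv5 in KO against WT iPSC with averaged probe sets (0.019), and Tnc, Serping1 and Ets2 with an array left out, where values ran from -1.33 to 1.90 for Tnc in ESC minus WT iPSC (lowest without WT iPSC replicate 2) and, in iPSC minus MEF, from -2.27 to 2.26 for Serping1 and -1.53 to 0.47 for Ets2 (the sign turning without KO MEF). Among members the sign also turned for Plau in ESC minus WT iPSC (0.08 without WT iPSC replicate 1) and, in iPSC minus MEF, for Plg (-0.18 without KO MEF, -0.02 without KO iPSC replicate 2, and with quantile normalization) and, with no test, Plaur (-2.26 without KO MEF, -0.27 and -0.28 without KO iPSC replicate 1 or 2, and with the replicate block). The causes were not tested. Plg and Vtn lay below background, where arrays hold little information on level.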
